A study of Mus musculus with 24 samples.

Results

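Matricellular proteins and genes of the transforming growth factor beta (TGF-beta) response were followed across the hearts of 4 mouse genotypes. The rule named 10 genes, Postn, Ccn2, Tnc, Thbs1, Thbs4, Spp1, Sparc, Tgfb2, Lox and Mfap5, and took every probe set annotated to exactly 1 of them. It found 9 genes with 19 probe sets, among 18193 genes and 45037 probe sets in all. The expression of Spp1 is not analysed here, and 1 probe set that carries Thbs1 together with another symbol was left out by the rule.

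Hearts came from mice at 90 days of age, 6 per genotype, on 24 Affymetrix arrays. The control group was non-transgenic (NTG). The other groups carried a human cDNA under the alpha-myosin heavy chain promoter, which is active in heart muscle cells: AC5 (adenylyl cyclase 5, which makes cAMP), beta1-Gly389 (GLY) or beta1-Arg389 (ARG), the 2 polymorphic forms of the beta1-adrenergic receptor. The labels call the hearts biological replicates and do not say from which transgenic founder line they came. RNA of the heart was measured, so more cells of a type and more RNA per cell cannot be told apart.

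Matricellular proteins are secreted into the extracellular matrix and regulate how cells attach, migrate and respond to growth factors, rather than bearing load. Several are low in the healthy adult heart and are known to rise after injury or overload, largely from fibroblasts. TGF-beta ligands are stored in the matrix in a latent form. Once released they bind paired kinase receptors, which phosphorylate Smad proteins that enter the nucleus and switch on matrix genes, among them Ccn2 and Postn.

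The deposited values were linear ratios with control hearts near 1, and log2 of the ratio was used throughout. On this scale 0 is near the control level and 1 is a doubling, and a ratio shows change but not how abundant a transcript was. For the same reason the heart label could not be set against marker levels. Over all arrays, ratios ran from 0.0636 to 34.8 and array medians of log2 values from -0.05 to 0.09. The labels name no batch. In NTG hearts the mean of replicates 1 to 3 and the mean of replicates 4 to 6 correlated across probe sets (r = 0.217). This r does not show that replicates 1 to 3 and 4 to 6 were batches. Values within each of these sets, which no label names, are also given. Differences are fitted log2 differences ± SE from limma, with p adjusted by the Benjamini-Hochberg method over all probe sets, and "rose" is used at an adjusted p under 0.05.

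Promoters of 4 members whose transcripts rose in ARG hearts are shown. They are the 250 bases before a RefSeq transcript start (GRCm38.p6), read 5′ to 3′ on the gene's strand, with motif matches in capitals.
Tgfb2, chr1:186705990-186706239, minus strand: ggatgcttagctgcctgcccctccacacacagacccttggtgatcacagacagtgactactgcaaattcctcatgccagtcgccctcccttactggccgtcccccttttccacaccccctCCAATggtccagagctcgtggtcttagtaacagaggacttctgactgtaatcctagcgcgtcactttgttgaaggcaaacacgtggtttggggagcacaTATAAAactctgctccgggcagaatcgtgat
Postn, chr3:54360857-54361106, plus strand: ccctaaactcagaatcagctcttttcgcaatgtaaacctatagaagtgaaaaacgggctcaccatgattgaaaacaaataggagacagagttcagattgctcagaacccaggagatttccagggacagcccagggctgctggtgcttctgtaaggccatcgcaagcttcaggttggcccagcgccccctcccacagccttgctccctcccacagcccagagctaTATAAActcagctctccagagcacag
Tnc, chr4:64047016-64047265, minus strand: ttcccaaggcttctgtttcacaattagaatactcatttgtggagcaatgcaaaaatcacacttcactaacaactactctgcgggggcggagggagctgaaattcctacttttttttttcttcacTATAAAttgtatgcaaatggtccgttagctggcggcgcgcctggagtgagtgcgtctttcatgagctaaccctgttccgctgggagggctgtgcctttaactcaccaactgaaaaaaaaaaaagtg
Thbs4, chr13:92794819-92795068, minus strand: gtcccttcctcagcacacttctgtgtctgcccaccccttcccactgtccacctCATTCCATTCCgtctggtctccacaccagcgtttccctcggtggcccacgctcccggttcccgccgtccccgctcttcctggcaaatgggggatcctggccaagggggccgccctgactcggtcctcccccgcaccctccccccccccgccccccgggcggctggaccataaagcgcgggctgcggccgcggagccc

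Each of these stretches lies upstream of a transcript start of its gene. The members searched were Tgfb2, Postn, Tnc, Spp1, Sparc and Thbs4. Ccn2, Thbs1, Mfap5 and Lox were not searched. The chromosome of Lox was skipped for the members but kept in the shares over all stretches. The search covered both strands of 9 such stretches of 6 members, some of them from alternative starts of 1 gene. Its motifs were the TATA box (TATAAA), the CCAAT box (CCAAT), the AP-1 site (TGANTCA), the cAMP response element (TGACGTCA), the TEAD site (GGAATG) and the palindromic Smad site (GTCTAGAC). A TATA box match began 31 bases before the start in Tgfb2, 26 bases before it in the Postn stretch shown and 126 bases before it in the Tnc stretch shown. At any position and on either strand, such a match was in 12.4% of 32851 stretches of the same length over all genes. Tgfb2 also held a CCAAT match (33.8% of all stretches), and Thbs4 held 2 overlapping TEAD matches (at least 1 such match was in 12.6% of all stretches). Among the stretches not shown, the other Tnc stretch overlapped the first and held the same TATA box letters, 205 bases before its own start. A Spp1 stretch held a TATA box match 211 bases and a CCAAT match 46 bases before its start. The other Postn stretch, the other Spp1 stretch and the Sparc stretch held no match. The AP-1, cAMP response and Smad letters were in none of the 9 member stretches, against 6.75%, 1.55% and 0.167% of all. A match is a string of letters and not a measured site.

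In ARG hearts the members stood above control hearts. Of the 19 probe sets 11 rose, in 8 of the 9 genes, and none fell, where 9.67% of all probe sets were called in either direction and 4.04% rose. The median log2 difference of the 19 was 0.72, against 0.00 over all probe sets (0.00421 before rounding). ARG and NTG hearts did not overlap at 8 of the 19, against 2.32% of all probe sets in that direction. The members were chosen with earlier results of these data known, so their count describes them and tests nothing.

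**Figure D1:**
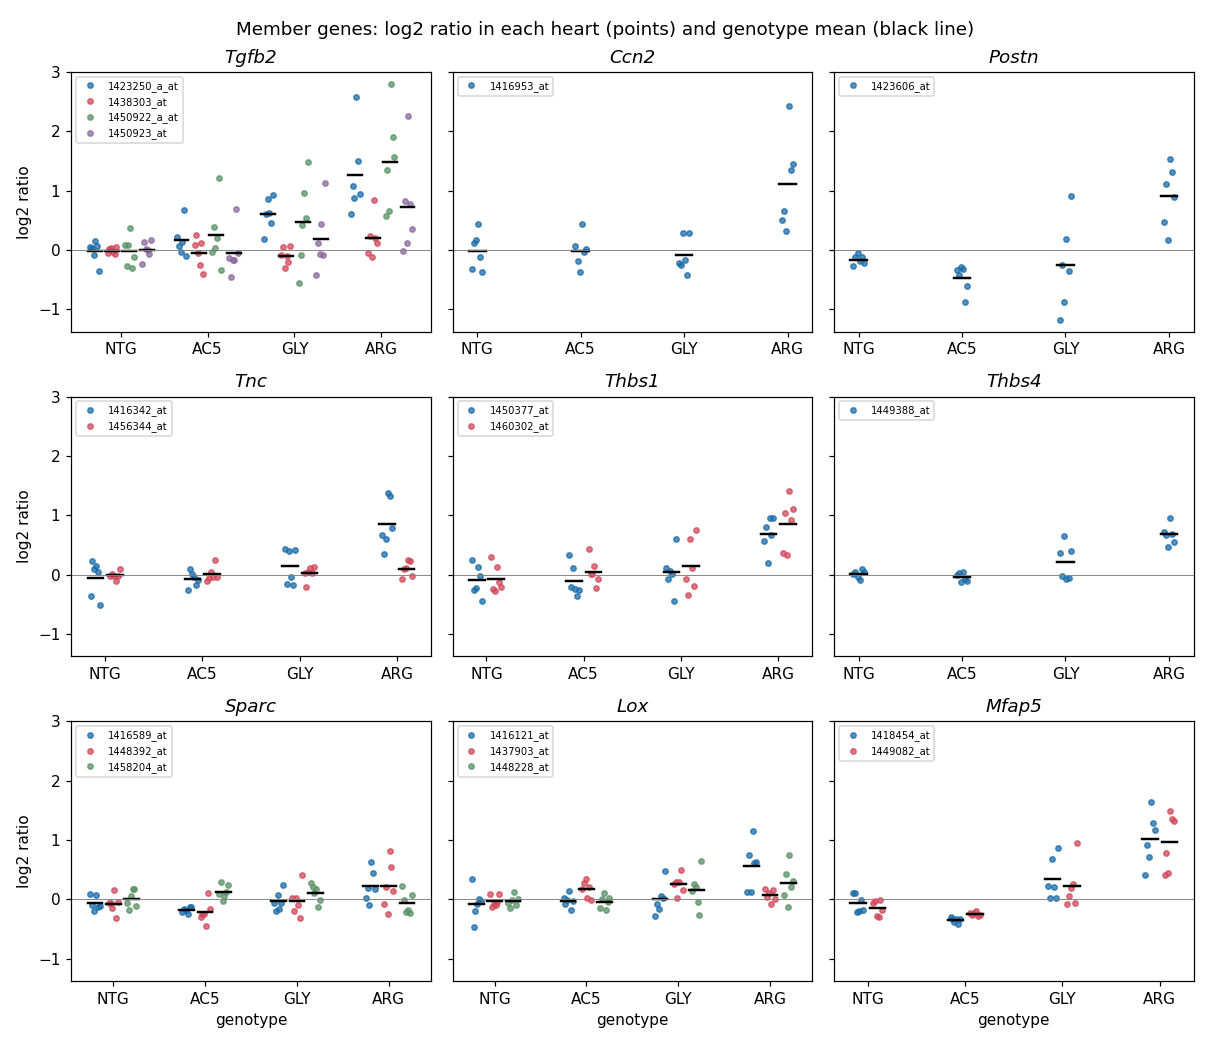
Log2 ratio (vertical axis) of the 9 genes in each heart, by genotype (horizontal axis), with 1 point per heart, 1 colour per probe set and a black line at the mean of 6 hearts. The ARG mean is the highest of the 4 at every probe set but Lox 1437903_at and Sparc 1458204_at, and no Sparc point exceeds 0.81 while Tgfb2 points reach 2.80.

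Tgfb2 encodes the ligand TGF-beta 2. At its probe set 1450922_a_at, log2 ratios ran from 0.58 through a median of 1.46 to 2.80 in ARG hearts and from -0.30 through -0.01 to 0.37 in NTG hearts. Every ARG heart was above every NTG heart, and the rise was 1.50 ± 0.32 (2.83-fold, adjusted p = 0.00204). At 1423250_a_at the ARG values ran from 0.61 through 1.01 to 2.57 and the NTG values from -0.35 through 0.04 to 0.16, again without overlap (rise of 1.29 ± 0.21, adjusted p = 0.000132). Its remaining probe sets were not called: 1450923_at differed by 0.72 ± 0.27 (adjusted p = 0.107) and 1438303_at by 0.21 ± 0.12 (adjusted p = 0.352). Probe sets of this gene therefore disagreed on the size of the change, though all 4 had the same sign.

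Ccn2, the connective tissue growth factor, is a secreted protein induced by TGF-beta. Its log2 ratios in ARG hearts were 0.31 at the lowest, 1.00 at the median and 2.43 at the highest, beside -0.37, 0.01 and 0.43 in NTG hearts. A single ARG heart, replicate 3, lay within the NTG range, and the rise was 1.13 ± 0.24 (2.19-fold, adjusted p = 0.00216). Postn, periostin, is a matrix protein of activated fibroblasts that binds integrins and collagen. It ran from 0.18 through 1.00 to 1.53 in ARG hearts and from -0.27 through -0.15 to -0.05 in NTG hearts. The groups did not overlap, and the rise was 1.08 ± 0.24 (2.11-fold, adjusted p = 0.00316).

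Tnc, tenascin-C, is an anti-adhesive glycoprotein of tissue under repair. At 1416342_at its ARG values ran from 0.36 through 0.73 to 1.37 and its NTG values from -0.51 through 0.07 to 0.24. All ARG hearts were above all NTG hearts (rise of 0.91 ± 0.16, adjusted p = 0.000259). The other Tnc probe set, 1456344_at, stayed between -0.08 and 0.25 in ARG hearts and was not called (0.11 ± 0.07, adjusted p = 0.473).

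The thrombospondins are large calcium-binding matrix glycoproteins. Thbs1, which can release TGF-beta from its latent form, rose at both probe sets. At 1460302_at its ARG values ran from 0.33 through 0.98 to 1.40, above all NTG values of -0.27 to 0.31 (rise of 0.93 ± 0.18, adjusted p = 0.000866). At 1450377_at a single ARG heart lay within the NTG range (rise of 0.79 ± 0.15, adjusted p = 0.000931). Thbs4, a thrombospondin of muscle and tendon, had the narrowest ARG spread among called members (SD 0.17). Its 6 ARG values lay between 0.47 and 0.96 with a median of 0.68, clear of the NTG values of -0.08 to 0.10. The rise was 0.66 ± 0.10 (1.58-fold, adjusted p = 6.2e-05).

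Mfap5, a glycoprotein of elastin-associated microfibrils, rose by 1.09 ± 0.15 at 1418454_at and by 1.11 ± 0.17 at 1449082_at (adjusted p = 2.28e-05 and 4.19e-05). At 1418454_at its ARG values of 0.41 to 1.65 (median 1.05) were above all NTG values of -0.20 to 0.11 (median -0.09). Lox, the lysyl oxidase that cross-links collagen and elastin, rose at 1 of 3 probe sets, 1416121_at, by 0.63 ± 0.15 (adjusted p = 0.00438). There 4 of 6 ARG hearts exceeded the highest NTG heart. The other Lox probe sets differed by 0.30 ± 0.12 (1448228_at, adjusted p = 0.142) and 0.10 ± 0.08 (1437903_at, adjusted p = 0.57).

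Sparc (osteonectin), a collagen-binding protein, was the only matched member without a call in ARG against NTG. Its probe set 1416589_at ran from -0.09 through 0.19 to 0.63 in ARG hearts and from -0.19 through -0.10 to 0.09 in NTG hearts. The difference was 0.29 ± 0.10 (adjusted p = 0.0564), with a 95% interval of 0.09 to 0.49. The call depended on the setting. It was made without NTG replicate 1 (adjusted p = 0.0498), ARG replicate 1 (0.0303) or ARG replicate 3 (0.0167), and with array weights (0.013), among others. It was not made in 17 of 25 alternatives. These included quantile normalization (0.0994), a fit of these 2 genotypes alone (0.104) and replicates 1 to 3 alone (0.753). Neither 1448392_at (0.30 ± 0.14) nor 1458204_at (-0.06 ± 0.09) was called.

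**Figure D2:**
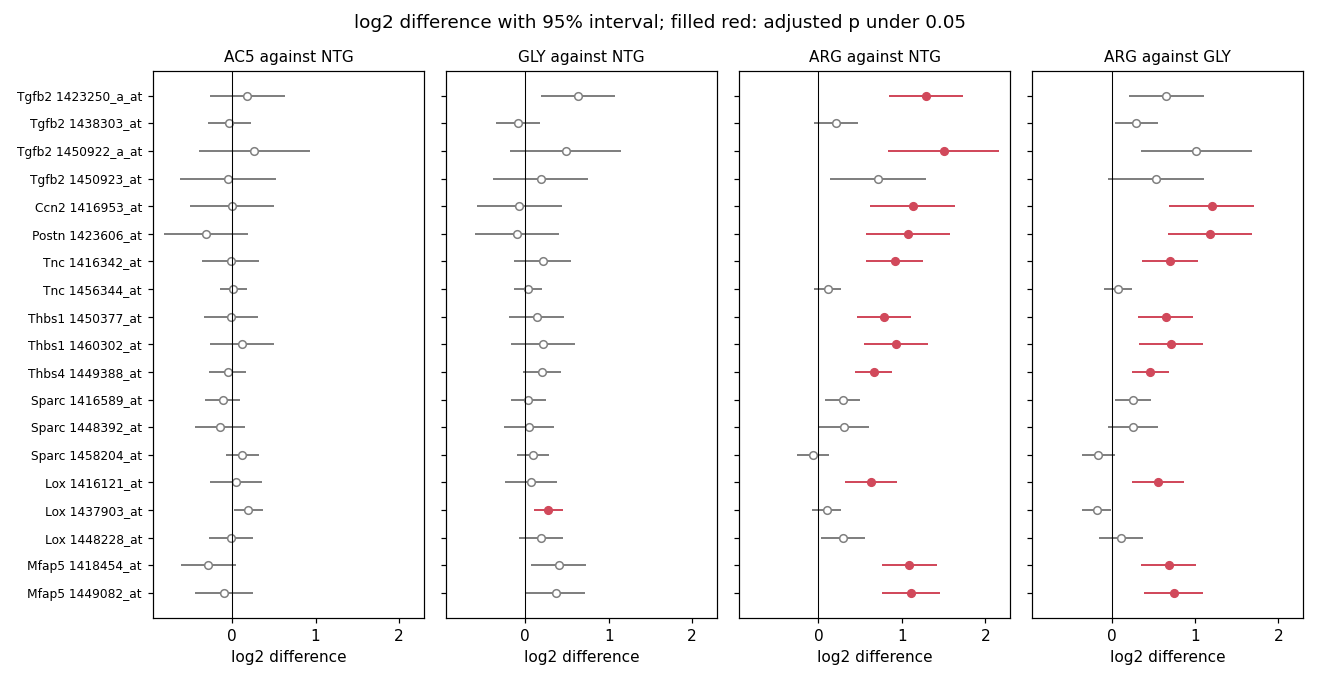
Fitted log2 difference (horizontal axis) with its 95% interval for each of the 19 probe sets (vertical axis) in 4 comparisons, filled red where the adjusted p was under 0.05. The panel of ARG against NTG has 11 filled points, that of ARG against GLY 9, that of GLY against NTG 1 and that of AC5 against NTG none.

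GLY hearts gave few calls against control hearts in these genes. Of the 19 probe sets 1 rose and none fell, where 5.08% of all probe sets were called and 1.55% rose. The share of members called (5.26%) was near the background of calls in either direction. The median log2 difference was 0.18, against 0.03 over all probe sets. The difference was above 0 at 16 of the 19 and below 0 at 3, where 41% of all probe sets were below 0. The call was Lox at 1437903_at, with values of 0.02 to 0.49 in GLY hearts and -0.13 to 0.10 in NTG hearts (rise of 0.28 ± 0.08, adjusted p = 0.0388). It was lost without any 1 of NTG replicates 2 to 5 or GLY replicates 1, 2, 4 and 5 (adjusted p of 0.0571 to 0.0933), after quantile normalization (0.141) and in a fit of these 2 genotypes alone (0.0927). At this probe set the ARG hearts, at -0.07 to 0.18, were not called against NTG.

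Tgfb2 at 1423250_a_at was the single member at which all GLY hearts (0.18 to 0.93) were above all NTG hearts (-0.35 to 0.16), as at 1.07% of all probe sets. Its difference was 0.63 ± 0.21 (adjusted p = 0.0825). It was called in a fit of these 2 genotypes alone (0.0131) and after quantile normalization (0.0334), where it took the place of Lox as the single call. Mfap5 differed by 0.40 ± 0.15 at 1418454_at (adjusted p = 0.139). For Ccn2 the difference was -0.07 ± 0.24, with a 95% interval of -0.56 to 0.43, and for Postn it was -0.10 ± 0.24, with an interval of -0.59 to 0.39. Postn was widely spread among GLY hearts, from -1.17 in replicate 1 to 0.91 in replicate 6 (SD 0.74, against 0.08 in NTG).

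In AC5 hearts no member was called. limma called 0 of the 19, with 1 at an unadjusted p under 0.05, where 0.142% of all probe sets were called. The median difference was -0.01, against 0.00 over all (-0.00115 before rounding). Postn and 1 of the 2 Mfap5 probe sets were nonetheless low in every AC5 heart. Mfap5 at 1418454_at ran from -0.41 to -0.30 in AC5 hearts, below all NTG values of -0.20 to 0.11 (difference -0.29 ± 0.15, adjusted p = 0.752). At its other probe set, 1449082_at, the groups overlapped, with AC5 values of -0.28 to -0.19 and a difference of -0.10 ± 0.17 (adjusted p = 0.962, and 0.6 in a fit of these 2 genotypes alone). Postn ran from -0.87 to -0.28 in AC5 hearts and from -0.27 to -0.05 in NTG hearts, a narrow gap (difference -0.31 ± 0.24, adjusted p = 0.872). Groups were apart in this direction at 0.733% of all probe sets. These SEs share 1 spread over genotypes, while the AC5 hearts had an SD of 0.04 for Mfap5. In a fit of AC5 and NTG alone the adjusted p was 0.0797 for Mfap5 and 0.135 for Postn, so neither was called there.

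ARG and GLY hearts, which carried receptor forms that differ at residue 389, were compared directly. Of the 19 probe sets 9 rose in ARG relative to GLY, in 7 genes, and none fell, where 1.51% of all probe sets were called and 0.793% rose. The differences were 1.20 ± 0.24 for Ccn2 (adjusted p = 0.00788) and 1.18 ± 0.24 for Postn (adjusted p = 0.00872). Mfap5 (0.68 ± 0.15 at 1418454_at), Tnc (0.70 ± 0.16 at 1416342_at), Thbs1 (0.65 ± 0.15 at 1450377_at), Thbs4 (0.46 ± 0.10) and Lox (0.56 ± 0.15 at 1416121_at) were also higher in ARG, with adjusted p between 0.0164 and 0.0486. No Tgfb2 probe set was called. Its difference at 1450922_a_at was 1.01 ± 0.32 (adjusted p = 0.118), with a 95% interval of 0.36 to 1.67.

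All ARG hearts were above all GLY hearts at 1 of the 19 probe sets, that of Ccn2 (0.31 to 2.43 against -0.42 to 0.29), as at 0.262% of all. Elsewhere GLY replicate 6 usually reached into the ARG range. The calls between ARG and GLY depended on the setting. None of the 9 was made after quantile normalization or in a fit of these 2 genotypes alone. Replicates 1 to 3 alone gave 1 call and replicates 4 to 6 alone gave 4. The count was 4 without GLY replicate 2, 2 without GLY replicate 5, 2 without ARG replicate 4 and 4 without ARG replicate 5. Calls over all probe sets moved as well. They ran from 382 to 1781 with 1 array left out, against 678 in the main fit. They also fell after quantile normalization, in the fit of 2 genotypes and within each set of replicates (counts in the closing section). The 9 called differences kept their sign in each of these fits, and those of all 19 were smaller after quantile normalization (median of 0.36 over the 19, against 0.56).

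Against AC5 hearts, ARG hearts were higher at 12 of the 19 probe sets, in all 9 genes, where 4.93% of all probe sets were called and 2.52% rose. Sparc was called here at 1416589_at (0.40 ± 0.10, adjusted p = 0.0115), with every ARG heart above every AC5 heart, as at 6 of the 19 probe sets (1.5% of all). The largest differences were those of Postn (1.39 ± 0.24) and Mfap5 (1.37 ± 0.15 at 1418454_at). After quantile normalization 7 probe sets in 6 genes were called, without Ccn2, Lox, Thbs1 and Tgfb2 1450922_a_at, and replicates 1 to 3 alone gave 3 (both Mfap5 probe sets and Tgfb2 1423250_a_at). This comparison shares the ARG hearts with those above. GLY hearts were higher than AC5 hearts at 1 probe set, Mfap5 at 1418454_at (0.69 ± 0.15, adjusted p = 0.0301), where 0.693% of all were called and 0.255% rose. That call was lost without any 1 AC5 heart or without GLY replicate 3 (adjusted p of 0.0547 to 0.0946).

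By genotype mean, ARG was the highest group at 17 of the 19 probe sets, and ARG was followed by GLY at 14. AC5 was the lowest at 10, NTG at 6, GLY at 2 and ARG at 1. The exceptions to ARG as the highest group were Lox at 1437903_at, led by GLY, and Sparc at 1458204_at, led by AC5. Among NTG, AC5 and GLY the only pairs called apart were GLY and NTG at Lox 1437903_at and GLY and AC5 at Mfap5 1418454_at. Without a call, all hearts of 1 group were above all of the other at some probe sets. These were GLY over NTG at Tgfb2 1423250_a_at (1.07% of all probe sets), NTG over AC5 at Postn and Mfap5 1418454_at (0.733%), and GLY over AC5 at Mfap5 1449082_at. For GLY over AC5 the share over all probe sets is not given here, so how common such a gap was cannot be read from it.

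**Figure D3:**
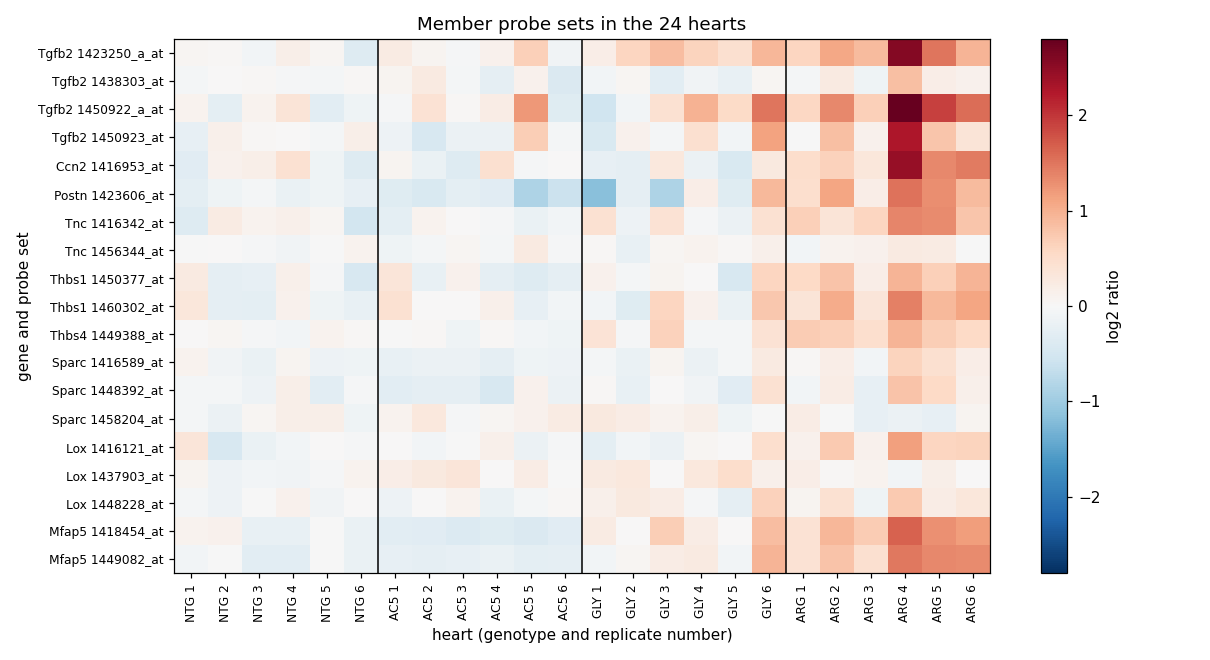
Log2 ratio of the 19 member probe sets (rows) in each of the 24 hearts (columns, by genotype and replicate number), red above and blue below the control level. ARG replicate 4 carries the deepest red, up to 2.80 for Tgfb2, and GLY replicate 6 is the reddest GLY heart.

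In ARG and in GLY hearts, 1 heart was the highest at most member probe sets. In NTG and in AC5 hearts no heart was the highest at more than 6 of the 19. Probe sets of 1 gene are counted separately here. ARG replicate 4 had the highest value of the ARG hearts at 16 of the 19 probe sets, while over all probe sets it was highest at 16.2%. Its median over the 19 was 1.15, beside 0.18 in replicate 3, which was lowest at 10 of them. GLY replicate 6 was the highest GLY heart at 14 of the 19 (16.4% over all probe sets), with a median of 0.48, beside -0.08 to 0.11 in the other GLY hearts. The array medians over all probe sets were -0.05 in ARG replicate 4 and -0.03 in GLY replicate 6, the lowest of their genotypes. The median SD of the members was 0.39 in ARG and 0.30 in GLY hearts, beside 0.14 in both NTG and AC5 hearts. Over all probe sets it was 0.18, 0.19, 0.13 and 0.14 in that order of genotypes. Leaving out ARG replicate 4 and GLY replicate 6 together left the counts at 11 of 19 for ARG against NTG and 9 of 19 for ARG against GLY.

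Within replicates 1 to 3, 4 of the 19 probe sets rose in ARG against NTG, and within replicates 4 to 6, 12 did, with median differences of 0.50 and 0.97. Calls over all probe sets were also more numerous within replicates 4 to 6 (counts in the closing section), so the change in count is not particular to the members. The 4 were both Mfap5 probe sets, Thbs4 and Tgfb2 at 1423250_a_at. Ccn2 differed by 0.50 in the first set and 1.76 in the second, and Mfap5 at 1418454_at by 0.68 and 1.50, whereas Thbs4 differed by 0.61 and 0.72. The difference was larger in replicates 4 to 6 at 17 of the 19. limma's test of that change between sets called 0 of 45037 probe sets. Its adjusted p was 0.791 for Ccn2 (unadjusted 0.00147) and 0.791 for both Mfap5 probe sets (unadjusted 0.00432 and 0.00104).

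Other genes of the TGF-beta pathway, from a list of ligands, latent binding proteins, receptors, Smads and targets of which 25 of 26 genes were matched, are given at 1 probe set per gene. In ARG against NTG 10 rose and 1 fell, where 4.24% of all genes rose and 7.1% fell, and the median was 0.16, against -0.01 over all genes. Bambi, a decoy receptor that restrains TGF-beta signalling, rose by 0.87 ± 0.14, and the inhibitory Smad7 by 0.48 ± 0.10. Skil (0.48 ± 0.13) and Pmepa1 (0.53 ± 0.13), both TGF-beta-induced inhibitors of Smad signalling, rose too. The ligand Tgfb3 rose by 0.58 ± 0.13, the matrix target Tgfbi by 0.59 ± 0.12 and the latent TGF-beta binding protein Ltbp2 by 0.52 ± 0.15. Inhba, Tgif1 and Smurf2 were the other rises, and Smad2, a signal-transducing Smad, fell by 0.36 ± 0.10. In GLY against NTG 2 of the 25 rose, Bambi (0.54 ± 0.14) and Smad7 (0.35 ± 0.10), where 1.34% of all genes rose. None was called in AC5, where 0.176% of all genes were called, and Skil alone was higher in ARG than in GLY (0.60 ± 0.13, adjusted p = 0.0124), where 0.989% of all genes rose and 0.907% fell. After quantile normalization Skil, Smurf2 and Smad2 were not called in ARG against NTG (adjusted p of 0.118, 0.0833 and 0.104), nor were any of the calls in GLY against NTG and ARG against GLY.

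Relatives of the members are given in the same way. Of 21 other matricellular genes 3 rose and 1 fell in ARG against NTG, with a median of -0.05. Of all genes 4.24% rose and 7.1% fell in that comparison. Fbln1 (fibulin 1) rose by 0.69 ± 0.15, Ccn5, a relative of Ccn2, by 0.53 ± 0.13 and Comp, the thrombospondin of cartilage, by 0.43 ± 0.14, and Vtn (vitronectin) fell by 0.37 ± 0.12. Of 13 matched lysyl oxidase relatives and elastic fibre genes, Mfap4 (0.69 ± 0.18), Pcolce, an enhancer of procollagen processing (0.67 ± 0.13), and Emilin1 (0.47 ± 0.13) rose and Efemp1 fell by 0.79 ± 0.20. Of 17 receptors of matricellular proteins 3 rose and 1 fell. Cd44, which binds hyaluronan and Spp1, rose by 2.31 ± 0.22, with Lrp1 (0.49 ± 0.12) and Sdc4 (0.31 ± 0.09), and the integrin subunit Itga8 fell by 0.45 ± 0.12. In GLY against NTG these 3 lists gave Pcolce (0.46 ± 0.13) and Cd44 (0.98 ± 0.22) as the only calls, both rises, where 1.34% of all genes rose. In ARG against GLY they gave Cd44 (1.34 ± 0.22) and a fall of Vtn by 0.50 ± 0.12, where 0.989% of all genes rose and 0.907% fell. After quantile normalization Comp, Vtn, Mfap4, Itga8 and Sdc4 were not called in ARG against NTG, and of the other calls only Cd44 in GLY against NTG was kept.

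**Figure D4:**
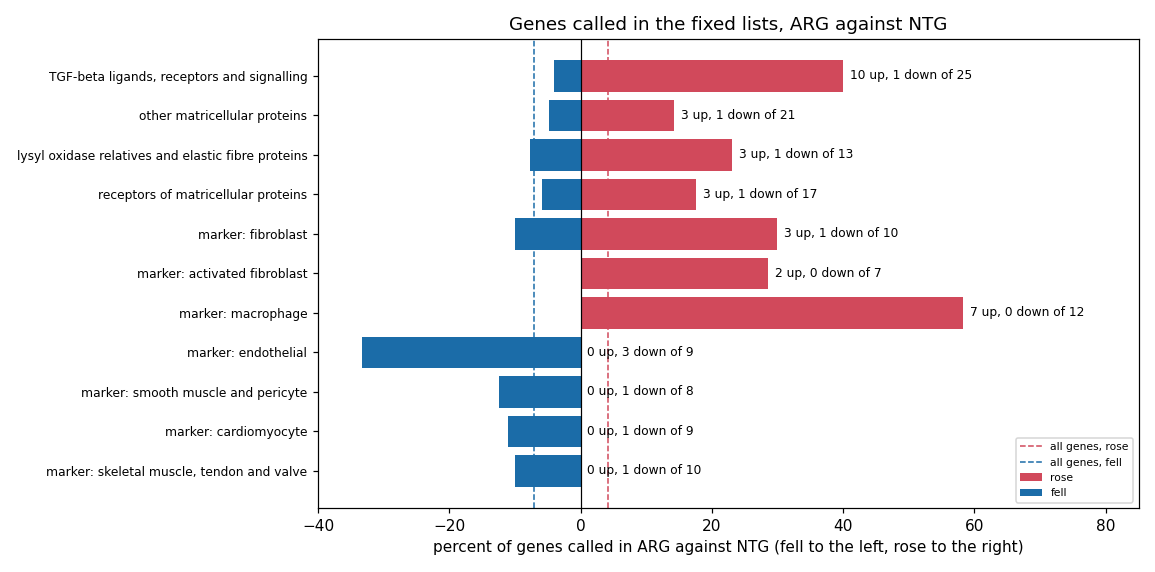
Percent of the genes of each list that rose (red, to the right) or fell (blue, to the left) in ARG against NTG, 1 probe set per gene, with dashed lines at the share of all 18193 genes (4.24% rose, 7.1% fell). The TGF-beta pathway list had 10 rises among 25 genes and the macrophage markers 7 among 12.

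Markers of other cells moved in the same hearts. The shares of all genes in ARG against NTG were 4.24% for rises and 7.1% for falls. Of 12 macrophage markers 7 rose in ARG against NTG (Cd68 by 0.96 ± 0.19), and the mean of the 12 ran from 0.16 to 0.88 in ARG hearts and from -0.14 to 0.06 in NTG hearts. In GLY hearts that mean ran from -0.36 to 0.48 and in AC5 hearts from -0.17 to 0.14. Of 10 fibroblast markers 3 rose and 1 fell in ARG: Col1a2 rose by 1.02 ± 0.15, Ddr2 by 0.31 ± 0.08 and Tcf21 by 0.31 ± 0.10, and Gsn fell by 0.64 ± 0.14. Their mean ran from -0.07 to 0.29 in ARG hearts and from -0.12 to 0.01 in NTG hearts, which overlap, and from -0.31 to -0.15 in AC5 hearts. In GLY hearts it ran from -0.30 to 0.31. All AC5 hearts were thus below all NTG hearts in the fibroblast mean, as they were for Postn and for Mfap5 at 1418454_at, but not for Mfap5 at 1449082_at. Of 7 markers of activated fibroblasts Cilp (1.17 ± 0.20) and Meox1 (0.83 ± 0.12) rose in ARG. The mean of the 7 ran from -0.04 to 0.63 in ARG hearts and from -0.20 to 0.06 in NTG hearts, which overlap. In ARG against GLY, the largest marker rises were those of C1qc (0.89 ± 0.21), Cilp (0.85 ± 0.20) and Col1a2 (0.73 ± 0.15), none of them called after quantile normalization. The part of these cells in the members' differences was not tested.

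Of 9 endothelial markers 3 fell in ARG against NTG, where 7.1% of all genes fell, and the median difference of the 9 was -0.27. Their mean ran from -0.53 to -0.01 in ARG hearts and from -0.20 to 0.12 in NTG hearts, which overlap. The falls were those of Egfl7 (by 0.49 ± 0.12), Emcn (by 0.46 ± 0.08) and Vwf (by 0.37 ± 0.12), and the part of these cells in the members' differences was not tested. Of 8 smooth muscle and pericyte markers Kcnj8 fell, of 9 cardiomyocyte markers Ttn fell by 0.33 ± 0.09, and of 10 markers of skeletal muscle, tendon and valve Acta1 fell by 2.47 ± 0.36. In GLY against NTG the calls among all markers were falls of Cd163 (0.52 ± 0.14 in size), Egfl7, Ttn and Acta1, where 4.12% of all genes fell, and AC5 had none. After quantile normalization the calls of Tcf21, Ddr2, C1qc and Vwf in ARG against NTG, and of all these markers in GLY against NTG, were not made.

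The genes whose pattern over the 24 hearts was most like the mean of the members (1 probe set per gene) were Col5a2 (Pearson r = 0.958), Ctss (0.95), Cilp (0.948), S100a10 (0.945), Pmp22 (0.938) and Svep1 (0.938), out of 18184 genes. These r values hold the differences between genotypes as well as those between hearts, and are a description. Col5a2, a fibrillar collagen chain, had a mean log2 ratio of 0.56 in ARG hearts, beside -0.08 (NTG), -0.30 (AC5) and -0.13 (GLY). Ctss, a lysosomal protease of macrophages, had a mean of 1.34 in ARG hearts, beside -0.11 (NTG), -0.10 (AC5) and 0.01 (GLY).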

How the data were processed

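RNA of 24 hearts was measured on Affymetrix arrays. Per the values themselves, each deposited number is a linear ratio, near 1 in control hearts. The submitters' processing notes name RMA, with no version. No source used here names the divisor. The number of arrays limits the precision.

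Of 45101 rows, 64 Affymetrix controls were left out. Probe sets were named through the platform annotation, with symbols updated by Entrez identifier. A linear model with a mean for each genotype was fitted to the log2 ratios by limma (version 3.58.1, R 4.3.3), after tests on simulated data. Where a gene needed 1 probe set, suffix and then lowest number chose it, without regard to the values, so that Tgfb2 was represented by 1438303_at, which was not called in any comparison. Promoters are from RefSeq. Tables and plots were made with pandas 2.3.3, numpy 2.4.6 and matplotlib 3.10.9.

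The members and lists were chosen with earlier results of these data known. All members are named. From each list the called genes with the largest rise and fall are named, and Smad7, Skil (except in ARG against GLY), Pmepa1, Tgfb3, Tgfbi, Ltbp2, Inhba, Tgif1, Smurf2, Ccn5, Comp, Pcolce (except in GLY against NTG), Emilin1, Lrp1, Sdc4, Ddr2, Tcf21, Emcn, Vwf and Meox1 were added after their values were seen, as was the test between replicate sets. Alternatives were quantile normalization, median centring, the replicate number as a block, the replicate set as a term or alone, array weights, a fit of 2 genotypes, robust moderation with a trend, 1 probe set per gene, a variance filter and leaving out arrays.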

Additional observations from a re-analysis of the deposited data

Results flagged for a closer look

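Values far from the others of their genotype were looked for at the 19 probe sets in each of the 4 genotypes, by the gap to the nearest heart over the range of the 6 hearts against Dixon's limit for 6 values. Of 76 groups 4 passed, where chance passes about 1 in 20. Mfap5 at 1449082_at was 0.95 in GLY replicate 6, with the other GLY hearts between -0.08 and 0.26. Tgfb2 at 1450923_at was 2.26 in ARG replicate 4, with the others between -0.02 and 0.83, and 0.70 in AC5 replicate 5, with the others between -0.45 and -0.05. Tnc at 1456344_at was -0.20 in GLY replicate 2, with the others between 0.03 and 0.13.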

How the results depend on the processing

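Counts are of the 19 member probe sets called. No called difference changed sign under any alternative run. ARG against NTG gave 11, and 11 to 13 under all alternatives but 2: 8 of 9 genes with 1 probe set per gene, and 4 within replicates 1 to 3. Those 8 genes included Sparc (adjusted p = 0.0475) but not Tgfb2, which was represented by 1438303_at. ARG against GLY gave 9, but 0 after quantile normalization, 0 in a fit of the 2 genotypes, 1 within replicates 1 to 3 and 4 within replicates 4 to 6. ARG against AC5 gave 12, but 7 after quantile normalization and 3 within replicates 1 to 3. GLY against NTG gave 1, 0 with median centring, robust moderation, 1 probe set per gene, the variance filter or either set alone, and 2 with array weights (Lox and Tgfb2) or, in an alternative chosen after seeing the data, without ARG replicate 4 and GLY replicate 6. GLY against AC5 gave 1, and 0 with median centring or either set alone. Leaving out 1 array gave 11 to 13 for ARG against NTG, 0 to 1 for GLY against NTG, 2 to 11 for ARG against GLY, 10 to 14 for ARG against AC5 and 0 to 1 for GLY against AC5; AC5 against NTG gave 0 throughout. The replicate block left every count as it was, at 11, 1, 0, 9, 12 and 1 (ARG, GLY and AC5 against NTG, ARG against GLY, ARG and GLY against AC5). Same-numbered hearts deviated together (r over 0.1) in 5 of 6 pairs of GLY and ARG and 5 of 6 of AC5 and ARG, but 0 of 6 of NTG and ARG and 16 of 36 in all. Of the 24 arrays, 9 deviated most like a same-numbered heart of another genotype. No 2 genotypes had every pair over 0.1, and the main fit did not pair the hearts. Whether the numbers pair them is not settled by these values. Over all probe sets, quantile normalization changed the calls from 4355 to 2400 (ARG), 2286 to 633 (GLY) and 64 to 398 (AC5) against NTG, 678 to 58 in ARG against GLY, 2220 to 889 in ARG against AC5 and 312 to 165 in GLY against AC5. Leaving out 1 array gave 3490 to 4533, 1337 to 3961, 22 to 90, 382 to 1781, 1588 to 2510 and 157 to 583 in that order. Within replicates 1 to 3 and 4 to 6 calls against NTG numbered 1302 and 2517 for ARG, 2740 and 72 for GLY and 18 and 0 for AC5, beside 182 and 192 in ARG against GLY, 244 and 1370 in ARG against AC5 and 94 and 16 in GLY against AC5. A fit of 2 genotypes gave 1247 (GLY) and 299 (AC5) against NTG, 95 in ARG against GLY and 126 in GLY against AC5. Array weights gave 525 in AC5 against NTG. Robust moderation gave 1475 (GLY) and 23 (AC5) against NTG and 207 in GLY against AC5. Leaving out GLY replicates 1 and 3 and ARG replicate 1 gave 1312, 188 and 3540 in GLY and AC5 against NTG and ARG against AC5. Leaving out ARG replicate 4 and GLY replicate 6 gave 4092 in GLY against NTG and 652 in GLY against AC5. With 1 probe set per gene, fewer features were tested and the calls were 2191, 1074, 39, 431, 1281 and 205. The cause of these changes was not tested. A ratio carries no signal over background, so dim probe sets could not be left out.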
